A study of Bos taurus with 24 samples.

Results

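The interferon-induced transmembrane (IFITM) genes encode small membrane proteins that sit in the plasma membrane and in endosomes and hinder the fusion of enveloped viruses with the host cell. Interferons bind their receptors on the cell surface, and through the receptor-bound kinases and STAT and IRF transcription factors they raise the transcription of IFITM genes together with many other interferon-stimulated genes. Macrophages take up particles through endosomes, where IFITM2 and IFITM3 proteins are known to reside. Described here are IFITM3 (ENSBTAG00000019015), IFITM2 (ENSBTAG00000019017) and the gene ENSBTAG00000019018, for which no symbol was found and which is called by its identifier. The 3 genes, of 24616 listed, were chosen by their names and neighbouring identifiers with their expected counts in all 8 conditions in view, so every level and difference of them is given as a description, without a test. Neighbouring identifiers do not show that the genes are neighbours in the genome, and no genome position or sequence of the 3 genes is given because the reference table used here carries no Ensembl identifiers.

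Monocyte-derived macrophages (MDMs) came from 6 lactating female Holstein cows, 3 classed as high responders and 3 as low responders by the nitric oxide that their MDMs made in culture after contact with E. coli. Blood mononuclear cells were left to adhere, and the adherent cells were grown for 6 days in AIM V medium with the growth factor GM-CSF (bovine, recombinant, 5 ng/ml), a treatment shared by every well. For each cow, 1 well stayed untreated as the control and 1 well received paraformaldehyde-inactivated E. coli at a multiplicity of infection of 5, for 3 h or 18 h, which gave 8 conditions of 3 libraries each. The bacteria were dead and the cells were grown in culture, which limits the wells as a model of infection. Library codes run from 91 to 94 and are followed by a letter, and the labels do not state what they number. The control and exposed wells of a cow were taken to share a code. The labels also do not state which codes at 3 h and 18 h belong to the same cow.

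Depth was between 6297190 and 20936554 expected counts per library, an expected count being the number of read pairs that RSEM assigned to a gene, which may hold fractions when pairs match several genes. Of the macrophage markers looked up, 4 of 10 had an identifier, and all were present, led by CD68, a lysosomal protein (median 1790 CPM, expected counts per 1000000 of a library total scaled by TMM), with CD14, the lipopolysaccharide co-receptor, at a median of 366 CPM. The B cell marker CD79A, the natural killer cell marker PRF1 and the stromal marker PDGFRB, the only markers of other cell types with an identifier, had medians of 0.69, 0.718 and 0.0541 CPM. Markers of T cells, dendritic cells, neutrophils, and erythroid cells or platelets were not analysed here for want of an identifier.

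Counts of IFITM3 and ENSBTAG00000019018 carried more error from the division of shared reads than those of IFITM2 did. Expected counts were not whole, beyond a tolerance of 0.005, in 23 of 24 libraries for IFITM3, in 22 for IFITM2 and in all 24 for ENSBTAG00000019018. Across all genes with a count, 242 of 16072 (1.51%) were not whole in all 24 libraries. The deposited tables also give the posterior standard deviation of a count, which is RSEM's own error for how pairs were divided. For IFITM3 it had a median of 20.5 read pairs (range 5.63 to 38.4), and for ENSBTAG00000019018 it had the same median (range 5.63 to 38.5). In no library did the values of these 2 genes differ by more than 0.14 read pairs. IFITM2 had a median of 0.925 and a maximum of 2.37 read pairs, although it is listed at similar abundance.

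Relative to the counts, that error was small. It came to between 0.882% and 4.05% of the expected count of IFITM3, between 0.948% and 6.96% of that of ENSBTAG00000019018, and at most 0.195% of that of IFITM2. The sum of the 3 expected counts lay within 0.01 of a whole number in every library, so the fractions of the 3 genes added up to whole read pairs. Of the 10 other listed genes with identifiers between ENSBTAG00000019010 and ENSBTAG00000019025, each had whole counts and a posterior standard deviation of 0 in all 24 libraries. These included TAX1BP1, an autophagy receptor, and NANS, a sialic acid synthase. ENSBTAG00000019012 was at 0 in every library and so could hold no fraction, and ENSBTAG00000019021 and ENSBTAG00000019024 were nearly absent. Among genes with a mean of at least 50 counts, 95.9% had a median posterior standard deviation of 0. The gene lengths listed for IFITM3, IFITM2 and ENSBTAG00000019018 were 582, 616 and 607 bases.

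All 3 genes were lower in the high responders than in the low responders in every condition. Over the 12 high responder libraries IFITM3 ran from 9.99 to 69.8 CPM with a median of 33.7, and over the 12 low responder libraries from 115.8 to 286.2 CPM with a median of 207.8. IFITM2 ran from 11.9 to 78.8 CPM (median 38.9) in high and from 110.2 to 399.0 CPM (median 286.7) in low responders. ENSBTAG00000019018 ran from 6.93 to 67.3 CPM (median 29.4) in high and from 86.1 to 241.9 CPM (median 159.0) in low responders. Thus the lowest low responder library stood above the highest high responder library for each gene, 1.66 times above it for IFITM3, 1.4 times for IFITM2 and 1.28 times for ENSBTAG00000019018. Such a separation of all 12 from all 12 libraries was found in 20 of 11905 genes with enough counts to be tested (0.168%), the 3 genes included. The libraries come from 6 cows and are not 24 independent samples. On the log2 scale the mean of low over high was 6.82-fold for IFITM3, 8.05-fold for IFITM2 and 5.88-fold for ENSBTAG00000019018. In bulk RNA, fewer cells that express a gene and less RNA of that gene per cell cannot be told apart.

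**Figure D1:**
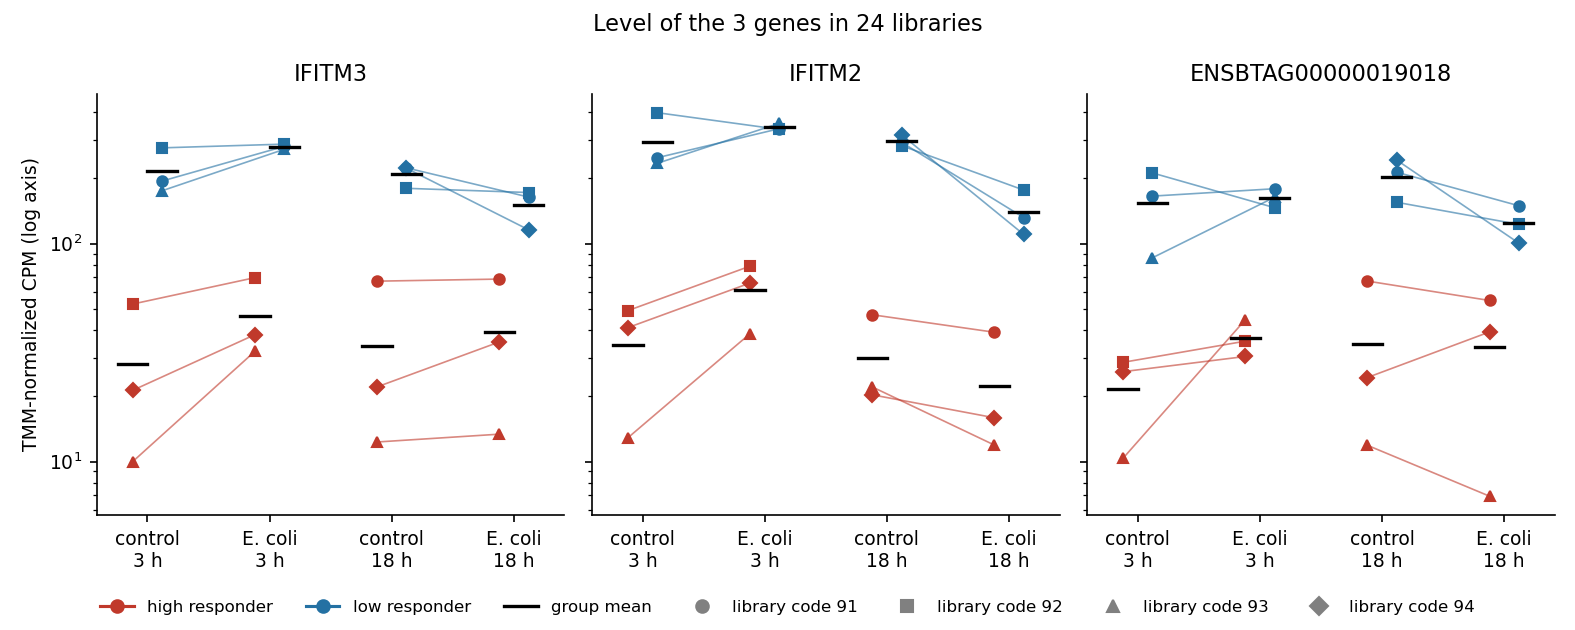
TMM-normalized CPM (log axis) of IFITM3, IFITM2 and ENSBTAG00000019018 in each of the 24 libraries, with lines joining the control and E. coli wells that share a library code and black bars for the mean of 3 libraries. In each panel all low responder points (blue) lie above all high responder points (red), and the red points spread more widely than the blue ones.

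Abundance per length, given as deposited TPM (transcripts among 1000000 of a library), placed the 3 genes higher among expressed genes in low than in high responders. In the 6 control wells of the low responders, IFITM2 averaged 1016 TPM and ranked 145 of 14920 genes listed above 0, IFITM3 averaged 789.4 TPM at rank 208, and ENSBTAG00000019018 averaged 630.7 TPM at rank 248. In the 6 control wells of the high responders, IFITM3 averaged 114.5 TPM (rank 1288 of 14883), IFITM2 106.8 TPM (rank 1381) and ENSBTAG00000019018 97.5 TPM (rank 1505). The averages of the high responders weigh most on code 92 at 3 h and code 91 at 18 h, the control wells with the most of the 3 genes. Among these 6 wells IFITM2 lay above IFITM3 in 3, with ratios between 0.646 and 1.78, so no order of the 3 genes held for all of them.

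In control wells at 3 h, IFITM3 stood at 52.8, 9.99 and 21.2 CPM in high responder codes 92, 93 and 94 and at 193.7, 275.1 and 174.8 CPM in low responder codes 91, 92 and 93. IFITM2 stood at 49.3, 12.85 and 41.2 CPM in the same high responder wells and at 247.8, 399.0 and 233.6 CPM in the low responder wells. ENSBTAG00000019018 stood at 28.5, 10.35 and 25.8 CPM in high and at 165.2, 211.1 and 86.1 CPM in low responders. High responder code 93 had the lowest value and low responder code 92 the highest value of each gene, and no group overlapped. The log2 fold changes, high minus low, from the edgeR fit across all genes were −2.98 ± 0.559 (SE, n = 3 per group) for IFITM3, −3.11 ± 0.494 for IFITM2 and −2.86 ± 0.47 for ENSBTAG00000019018. Groups that did not overlap, with high responders lower, made up 6.76% of the genes tested in these wells. Without high responder code 92 the log2 fold change of IFITM3 was −3.78, a fold over 1.5 times as large.

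Untreated wells at 18 h had the same arrangement. IFITM3 stood at 67.2, 12.3 and 22.0 CPM in high responder codes 91, 93 and 94 and at 222.7, 179.4 and 221.9 CPM in low responder codes 91, 92 and 94. IFITM2 stood at 47.2, 22.0 and 20.2 CPM in high and at 291.8, 281.6 and 315.8 CPM in low responders. ENSBTAG00000019018 stood at 67.3, 11.9 and 24.3 CPM in high and at 212.7, 154.8 and 241.9 CPM in low responders. High responder code 91 was the highest of its group for each gene, and again no group overlapped, as in 13.3% of the genes tested. The log2 fold changes were −2.63 ± 0.559 (SE, n = 3 per group) for IFITM3, −3.33 ± 0.326 for IFITM2 and −2.57 ± 0.567 for ENSBTAG00000019018. Code 91 decided part of their size, since without it they were −3.61 for IFITM3, −3.82 for IFITM2 and −3.50 for ENSBTAG00000019018.

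Exposed wells kept the separation. At 3 h, IFITM3 stood at 69.8, 32.0 and 38.2 CPM in high responder codes 92, 93 and 94 and at 279.4, 286.2 and 270.9 CPM in low responder codes 91, 92 and 93. IFITM2 stood at 78.8, 38.6 and 65.9 CPM in high and at 337.0, 334.4 and 356.5 CPM in low responders. ENSBTAG00000019018 stood at 35.7, 44.7 and 30.3 CPM in high and at 178.6, 146.2 and 163.2 CPM in low responders. The 3 low responder wells lay within 1.06-fold of each other for IFITM3, within 1.07-fold for IFITM2 and within 1.22-fold for ENSBTAG00000019018, and neither phenotype reached into the range of the other, as in 10.4% of the genes tested. The log2 fold changes, high minus low, were −2.56 ± 0.285 (SE, n = 3 per group) for IFITM3, −2.46 ± 0.258 for IFITM2 and −2.11 ± 0.2 for ENSBTAG00000019018.

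At 18 h of exposure the groups again did not meet. IFITM3 stood at 68.8, 13.4 and 35.4 CPM in high responder codes 91, 93 and 94 and at 163.6, 171.6 and 115.8 CPM in low responder codes 91, 92 and 94. IFITM2 stood at 39.2, 11.9 and 15.9 CPM in high and at 131.7, 176.1 and 110.2 CPM in low responders. ENSBTAG00000019018 stood at 54.8, 6.93 and 39.3 CPM in high and at 149.2, 122.5 and 100.5 CPM in low responders. Each group stayed on its own side, as in 12.3% of the genes tested, with log2 fold changes of −1.94 ± 0.503 (SE, n = 3 per group) for IFITM3, −2.63 ± 0.433 for IFITM2 and −1.88 ± 0.597 for ENSBTAG00000019018. Without high responder code 91 these were −2.64 for IFITM3, −3.33 for IFITM2 and −2.45 for ENSBTAG00000019018.

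For IFITM3 and IFITM2, high responders varied more among themselves than low responders did. The highest IFITM3 value of a condition was between 2.18 and 5.47 times the lowest in the 4 high responder conditions, and between 1.06 and 1.57 times in the 4 low responder conditions. For IFITM2 these ratios ran from 2.04 to 3.83 in high and from 1.07 to 1.71 in low responders. For ENSBTAG00000019018 they ran from 1.47 to 7.91 in high and from 1.22 to 2.45 in low responders, and so overlapped, with the lowest high responder ratio in wells exposed for 3 h. The share of all genes with a wider spread in high responders was not computed, so this spread is not shown to be particular to these genes. The wells of code 92 at 3 h and of code 91 at 18 h, which carry the letters M and N in their codes, held the highest IFITM3 and IFITM2 values of each high responder condition. With these 4 libraries left out, an alternative chosen after the data were seen, low over high was 9.95-fold for IFITM3, 10.4-fold for IFITM2 and 7.61-fold for ENSBTAG00000019018.

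Ordered by mean CPM, all 4 low responder conditions ranked above all 4 high responder conditions for each gene. IFITM3 was highest in low responder wells exposed for 3 h (278.9 ± 7.66 CPM, SD, n = 3), followed by low responder controls at 3 h (214.5 ± 53.3) and 18 h (208.0 ± 24.8), which overlapped. Low responder wells exposed for 18 h (150.3 ± 30.2) followed with no overlap. The high responder conditions came last for IFITM3, at 46.7 ± 20.3 CPM with exposure and 28.0 ± 22.2 CPM without it at 3 h, and at 39.2 ± 27.9 and 33.9 ± 29.3 CPM at 18 h, and neighbours among them overlapped.

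IFITM2 had a somewhat different order within the low responders. Wells exposed for 3 h (342.7 ± 12.1 CPM, SD, n = 3) lay above the controls at 18 h (296.4 ± 17.6) with no overlap. The controls at 3 h (293.5 ± 91.7) overlapped with those at 18 h, and the wells exposed for 18 h (139.3 ± 33.6) lay below both without overlap. ENSBTAG00000019018 was highest in low responder controls at 18 h (203.2 ± 44.3 CPM), and its low responder conditions overlapped from each to the next, down to 124.1 ± 24.4 CPM with exposure for 18 h. For the gaps between low responder conditions of IFITM3 and IFITM2, the share of all genes with such a gap was not computed. The study put each time point on its own plate, so time and plate cannot be told apart in these orders.

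Fitted effects of E. coli on the 3 genes, on the log2 scale, were smaller than the differences between phenotypes at the same time. After 3 h all 3 high responder cows had more IFITM3 in the exposed than in the control well, with log2 changes of 0.40, 1.68 and 0.85 in codes 92, 93 and 94, of which that of code 92 was −0.12 on the deposited TPM scale. IFITM2 changed by 0.68, 1.59 and 0.68 and ENSBTAG00000019018 by 0.32, which was −0.198 on the TPM scale, 2.11 and 0.23 in the same cows. Code 93, which had the least of each gene in its control well, had the largest change each time. A higher exposed well in all 3 high responder cows was seen in 25.6% of the genes tested. The fitted log2 fold changes were 1.01 ± 0.219 (SE, n = 3 cows) for IFITM3, 1.02 ± 0.215 for IFITM2 and 0.93 ± 0.378 for ENSBTAG00000019018, and without code 93 they were 0.70, 0.75 and 0.35.

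Low responders had smaller fitted changes at 3 h, but single cows of the phenotypes overlapped for IFITM3 and ENSBTAG00000019018, and the difference was not tested. IFITM3 changed by 0.53, 0.06 and 0.63 on the log2 scale in codes 91, 92 and 93, higher with exposure in all 3 cows by CPM although −0.479 by TPM in code 92, as were 29.3% of the genes tested. IFITM2 changed by 0.44, −0.25 and 0.61, and ENSBTAG00000019018 by 0.11, −0.53 and 0.92, so that code 92 went the other way for both, and by TPM code 91 was also below 0 for ENSBTAG00000019018 (−0.312). The fitted log2 fold changes of 0.42 ± 0.204 (SE, n = 3 cows) for IFITM3, 0.28 ± 0.205 for IFITM2 and 0.18 ± 0.351 for ENSBTAG00000019018 were below 0 on the deposited TPM scale, at −0.08, −0.22 and −0.32. Without low responder code 93, ENSBTAG00000019018 was at −0.20. The TPM of the median gene was lower in the exposed than in the control well of each of the 6 cows at 3 h, by a log2 change of between −0.557 and −0.45 in low and between −0.683 and −0.13 in high responders. After subtraction of that median, each gene's TPM change lay within 0.096 of its CPM change in each cow, so changes are given relative to the median gene throughout.

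After 18 h, IFITM2 had the lower value in the exposed well of every cow. Its log2 changes were −0.27, −0.88 and −0.35 in high responder codes 91, 93 and 94 and −1.15, −0.68 and −1.52 in low responder codes 91, 92 and 94. IFITM3 changed by 0.03, 0.12 and 0.68 in the high responders and by −0.45, −0.06 and −0.94 in the low responders, so the cows of the 2 phenotypes lay on opposite sides of 0 by CPM, whereas by TPM high responder codes 91 and 93 were also below 0 (−0.332 and −0.246). That arrangement by CPM was seen in 0.69% of the genes tested. ENSBTAG00000019018 changed by −0.30, −0.77 and 0.69 in high and by −0.51, −0.34 and −1.27 in low responders. A lower exposed well in all 3 cows was seen in 39.1% of the genes tested in high and in 33.5% in low responders.

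The fitted log2 fold changes at 18 h in low responders were −0.50 ± 0.16 (SE, n = 3 cows) for IFITM3, −1.13 ± 0.154 for IFITM2 and −0.72 ± 0.225 for ENSBTAG00000019018. In high responders they were 0.26 ± 0.178 for IFITM3, which became −0.08 on the TPM scale before subtraction of the median gene, −0.49 ± 0.174 for IFITM2 and −0.08 ± 0.254 for ENSBTAG00000019018, whose value was 0.07 without code 91, 0.17 without code 93 and −0.48 without code 94. IFITM3 in high responder codes 91 and 93 was thus nearly level, and its fitted log2 fold change was 0.055 without code 94. The difference of the E. coli effects, high minus low, was 0.76 ± 0.239 for IFITM3, 0.64 ± 0.232 for IFITM2 and 0.65 ± 0.339 for ENSBTAG00000019018 at 18 h. At 3 h it was 0.59 ± 0.298 for IFITM3, 0.74 ± 0.296 for IFITM2 and 0.75 ± 0.515 for ENSBTAG00000019018. Without high responder code 93 the difference at 3 h was 0.27 for IFITM3, 0.47 for IFITM2 and 0.16 for ENSBTAG00000019018, and without high responder code 94 that of ENSBTAG00000019018 at 18 h was 0.24. These differences were all on the side of the high responders and were small beside the log2 difference between the phenotypes in either kind of well. The 24 interferon-stimulated genes described further on had medians of this difference of 0.73 at 3 h and 0.81 at 18 h, above 0 in 23 of 24 at each time, and came from tables that keep genes for a small p value in such a comparison.

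**Figure D2:**
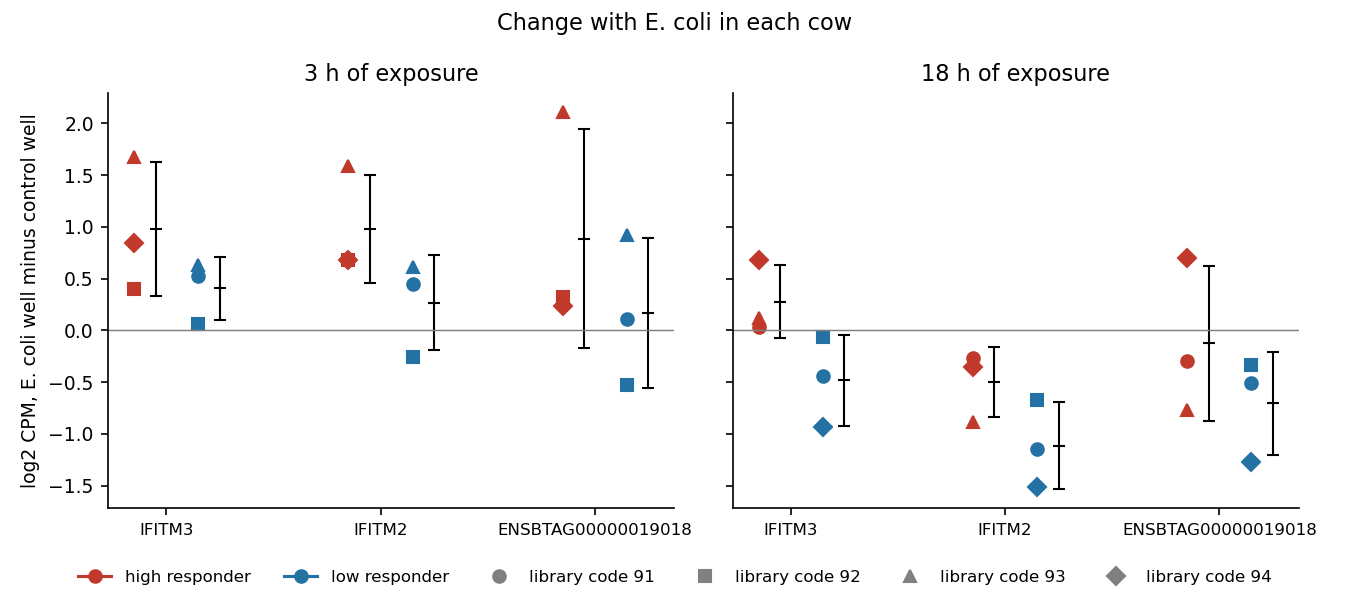
Log2 CPM of the E. coli well minus that of the control well for each cow (points, shaped by library code) with the mean and SD of 3 cows (black), at 3 h and 18 h, for the 3 genes in high (red) and low (blue) responders. At 3 h the red points lie above 0 (by TPM, code 92 lies below 0 for IFITM3 and ENSBTAG00000019018), and at 18 h IFITM2 lies below 0 in all 6 cows while IFITM3 lies above 0 in the 3 high and below 0 in the 3 low responders (by TPM, high responder codes 91 and 93 also lie below 0).

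The 3 genes did not keep fixed proportions. The ratio of IFITM2 to IFITM3 within a library, from TPM, fell between the control and the exposed well of all 6 cows at 18 h. In low responder codes 91, 92 and 94 it went from 1.21 to 0.743, from 1.45 to 0.947 and from 1.31 to 0.876. In high responder codes 91, 93 and 94 it went from 0.646 to 0.525, from 1.65 to 0.82 and from 0.849 to 0.414. Because it is a ratio within a library, it does not depend on the scaling between libraries, and the posterior error of either count was a few percent at most. How often the ratio of other pairs of genes falls in all 6 cows was not computed. At 3 h the ratio of IFITM2 to IFITM3 was lower in the exposed well of 5 of 6 cows, the exception being high responder code 92, and the mean of the low responders was 1.25 ± 0.0819 (SD, n = 3) in control and 1.13 ± 0.0681 in exposed wells.

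The ratio of ENSBTAG00000019018 to IFITM3, the genes with the larger posterior error, ranged from 0.463 to 1.31. It was lower with exposure in 4 of 6 cows at 3 h and in 5 of 6 at 18 h. IFITM3 exceeded ENSBTAG00000019018 in TPM in 19 of 24 libraries, and IFITM2 exceeded IFITM3 in 15 of 24. With the 3 genes summed to 1 feature, which removes the division of pairs among them, the log2 fold change between phenotypes in wells exposed for 3 h was −2.43.

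**Figure D3:**
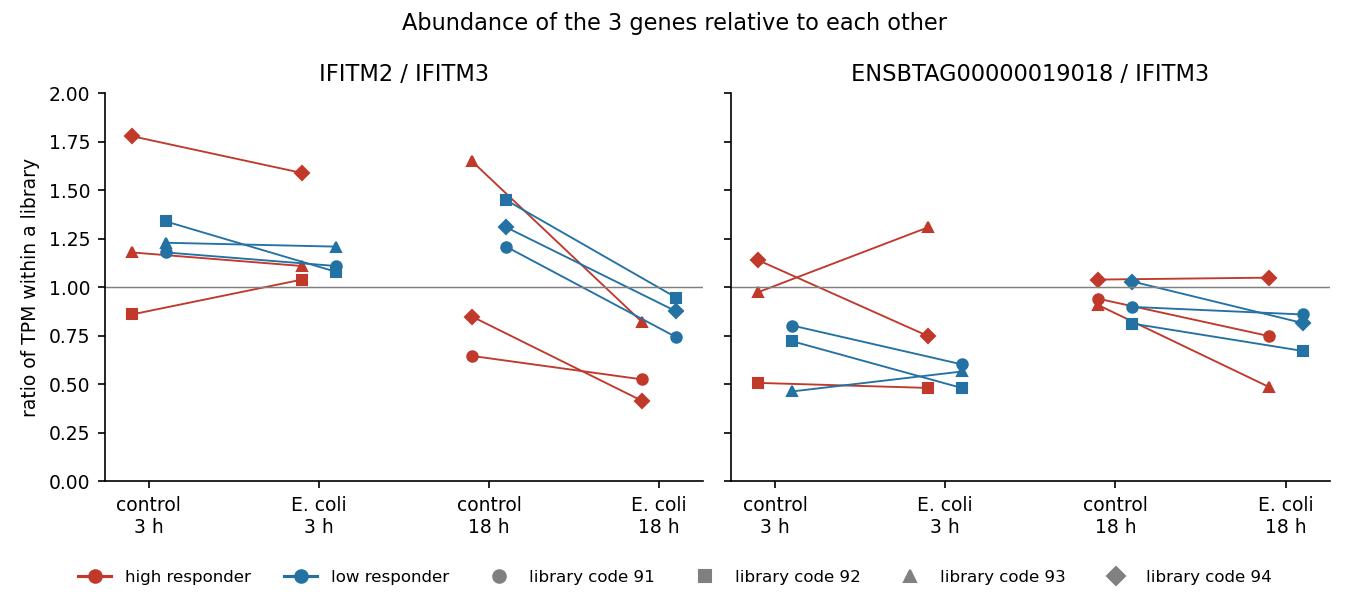
Ratio of TPM within each library for IFITM2 over IFITM3 (left) and ENSBTAG00000019018 over IFITM3 (right), with lines joining the control and E. coli wells of a cow, high responders in red and low responders in blue. The IFITM2 to IFITM3 ratio falls in all 6 cows at 18 h, from 1.21 or more to below 0.95 in the low responders.

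Levels of the 3 genes ran in parallel over the 24 libraries, with Pearson's r of log2 CPM of 0.955 for IFITM3 and IFITM2, 0.962 for IFITM3 and ENSBTAG00000019018, and 0.921 for IFITM2 and ENSBTAG00000019018. Within the 12 high responder libraries r was 0.77, 0.877 and 0.669, and within the 12 low responder libraries 0.912, 0.627 and 0.619, for the same pairs. The wells share cows, and the 3 genes share divided reads.

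The genes most like them by Pearson's r over 24 libraries were sought among 11902 others. PARM1, a mucin-like membrane protein, came first for each, with r of 0.937 to IFITM3, 0.929 to IFITM2 and 0.869 to ENSBTAG00000019018. It was also lower in high responders, with a median of 19.1 CPM against 64.9 CPM in low responders. Within phenotypes its r to IFITM3 was 0.873 in high and 0.914 in low responders. Next to IFITM3 came HSH2D, an adaptor protein of lymphocyte signalling (0.918), RTP4, an interferon-induced chaperone of receptors (0.914), GBP4, an interferon-induced GTPase (0.911), and ENSBTAG00000008021 (0.91). HSH2D was low throughout, at a median of 1.07 CPM in high and 9.05 CPM in low responders, and within the low responders its r to IFITM3 was −0.0146.

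IFITM2 was followed by ENSBTAG00000003352 (0.906), ENSBTAG00000008021 (0.9), the peptidyl-prolyl isomerase PPIC (0.879) and UBA7, which activates the ubiquitin-like protein ISG15 (0.875). UBA7 had a median of 71.1 CPM in high and 193 CPM in low responders, and its r to IFITM2 within the low responders was 0.869, against 0.422 for ENSBTAG00000003352 and 0.189 for PPIC. ENSBTAG00000003352 had a median of 0 CPM in high and 3.12 CPM in low responders. The list for ENSBTAG00000019018 held HSH2D (0.861), RTP4 (0.835), ENSBTAG00000003352 (0.832) and GBP4 (0.83). Within the low responders these had r of −0.281, 0.342, 0.322 and 0.0553 to ENSBTAG00000019018, in the same order. By Spearman's rank correlation PARM1 stayed first for IFITM3 and was second for IFITM2 and ENSBTAG00000019018.

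Other interferon-stimulated genes were set beside the 3 genes. Of 40 listed genes, 24 had an identifier, and all 24 came from shortened tables that keep genes with a small p value in the study's own comparison of the responses, so the list was trimmed by related values. After 3 h, 21 of the 24 rose and 1 fell in high responders by edgeR's quasi-likelihood test (15.7% of all genes tested were called higher and 11.9% lower), and 19 rose and 1 fell in low responders (9.93% and 7.78%). The medians of the 24 log2 fold changes were 1.79 and 1.05, beside −0.01 and −0.03 over all genes. Without the pairing of wells, 2 of the 24 were called higher in low responders, and without low responder code 91 or 92 the count was 11 or 12. The 3 genes, at 0.93 to 1.02 in high and 0.18 to 0.42 in low responders, lay below these medians at 3 h. In high responders 4 of the 24, IFI35, PARP9, GBP4 and SAMHD1, had a smaller log2 fold change than each of the 3 genes, and in low responders 3 of the 24 lay below IFITM3, 2 below IFITM2 and 1 below ENSBTAG00000019018. At 18 h the medians of the 24 effects of E. coli were 0.78 in high and 0.03 in low responders.

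The antiviral gene IFIT1, which binds foreign RNA, averaged 46.9 ± 52.5 CPM in control and 1020 ± 789 CPM in exposed wells of high responders at 3 h (SD, n = 3), a log2 fold change of 4.85 ± 0.263 (edgeR, adjusted p = 3.55e-06). In low responders it rose from 359 ± 150 to 1650 ± 488 CPM, by 2.26 ± 0.231 (edgeR, adjusted p = 0.000241). GBP5, a GTPase of inflammasome activation, had the largest rise of the 24 genes in both phenotypes, 5.67 ± 0.195 in high and 3.70 ± 0.167 in low responders. RSAD2, which makes an antiviral nucleotide, rose by 4.76 ± 0.458 (4.13 without high responder code 93) and 2.39 ± 0.394, and the ubiquitin-like ISG15 by 3.91 ± 0.301 and 2.21 ± 0.274. The exonuclease gene ISG20 rose by 3.19 ± 0.396 (3.90 without high responder code 94) and 1.55 ± 0.272, the latter not called without low responder code 91 (1.41). In the control wells of high responders ISG20 averaged only 0.543 CPM. SAMHD1, which depletes nucleotides, was the gene that fell, by 0.74 on the log2 scale in high and by 0.77 in low responders, but the call was lost in high responders without their code 92 (−0.70) or 93 (−0.47) and in low responders without any 1 of their 3 cows (−0.84 to −0.69) or without high responder code 92 (−0.77).

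Between phenotypes in control wells at 3 h, 23 of the 24 had a log2 fold change, high minus low, below 0, with a median of −1.68. By edgeR's test 0 of the 24 were called lower in high responders (0% of all genes tested), 21 had an unadjusted p below 0.05 (4.69% of all genes), and DESeq2 called 16 lower (1.58%). In wells exposed for 3 h these counts were 0 by edgeR (0.0559%), 4 at an unadjusted p below 0.05 (4.76%) and 2 by DESeq2 (0.914%). The study's comparison of responses, which trimmed the list, subtracts the control wells, and 23 of the 24 had a larger fitted response in high responders at 3 h. That trimming favours lower control wells in high responders, so the counts in control wells are no independent support for such a difference. In control wells at 3 h IFIT1, ISG15, ISG20 and RSAD2 were at −2.97 ± 0.839, −2.96 ± 0.406, −3.94 ± 0.484 and −3.76 ± 0.8 (SE, n = 3 per group). ISG20 was low in the high responder wells, at 0.306 to 0.682 CPM, so its value rests on few read pairs. At 18 h the median was −1.50, with 23 of 24 below 0. In exposed wells the medians were −0.71 at 3 h and −0.55 at 18 h, and over all genes each of the 4 medians lay within 0.03 of 0. IFIT1 was at −0.67 ± 0.551 and RSAD2 at −1.24 ± 0.809 in wells exposed for 3 h. In wells exposed for 3 h, none of the 24 was lower than IFITM3 or IFITM2, and 1, ISG20 at −2.13, was lower than ENSBTAG00000019018. At 18 h of exposure none of the 24 was lower than any of the 3. In control wells, 3 of the 24 were lower than IFITM3, 2 lower than IFITM2 and 5 lower than ENSBTAG00000019018 at 3 h, and 2, 0 and 4 at 18 h. This ordering is a description of a trimmed list, and the difference between the 3 genes and the list was not tested.

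**Figure D4:**
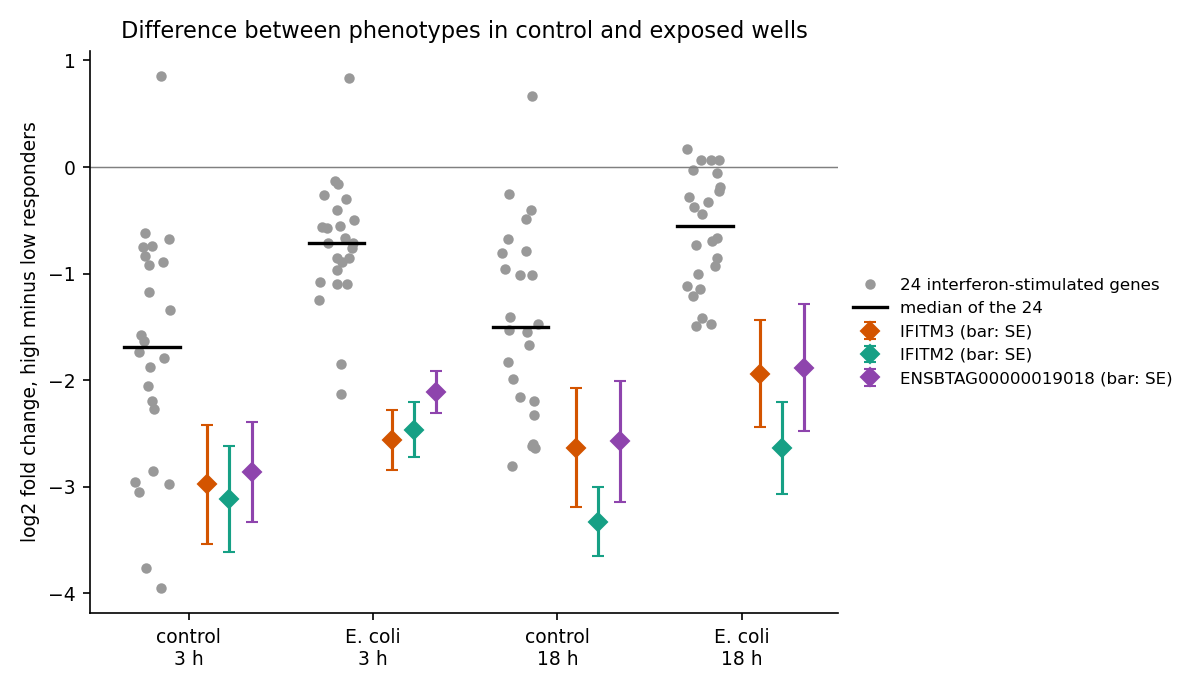
Log2 fold change, high minus low responders, in control and E. coli wells at 3 h and 18 h for 24 interferon-stimulated genes (grey points, with their median in black) and for IFITM3, IFITM2 and ENSBTAG00000019018 (coloured diamonds with SE). The grey medians lie at −1.68 and −1.50 in control wells and at −0.71 and −0.55 in exposed wells, while the diamonds lie between −3.33 and −1.88.

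Of 23 listed genes of the interferon pathway, 10 had an identifier. All but IFNLR1, a receptor of type III interferons, came from genes kept for a small p value in the study's comparison of responses. After 3 h of E. coli, 8 of the 10 rose in high responders (15.7% of all genes were called higher) and 6 in low responders (9.93%), and none fell by edgeR's test (11.9% and 7.78% of all genes were called lower). Among the transcription factors, IRF1, which drives interferon-induced genes, rose by 4.93 ± 0.209 in high and 3.71 ± 0.196 in low responders, and IRF8, a factor of monocyte and macrophage development, rose by 2.66 ± 0.201 and 2.87 ± 0.202. IRF9, the DNA-binding subunit of the type I interferon factor ISGF3, rose by 1.08 ± 0.211 and 0.97 ± 0.208, and its call in low responders was lost without low responder code 91 (0.81) or 92 (1.07). STAT2, its partner, rose by 0.78 ± 0.147 in high responders and was at 0.55 ± 0.145 in low responders, under the fold change threshold of 1.5, which it passed without low responder code 93 (0.71). The kinase gene JAK2, which acts at the interferon gamma receptor, rose by 2.25 ± 0.181 in high and 1.86 ± 0.181 in low responders. IFNLR1 rose by 2.35 ± 0.393 in high responders and was at 0.66 ± 0.287 in low responders, where it was called without high responder code 94 (0.68). IFNLR1 was low in the high responder control wells at 3 h, at 0.321 to 0.819 CPM, so its fold changes there rest on few read pairs. Between phenotypes in control wells at 3 h, the 10 genes ran from −2.89 (IFNLR1) to 0.41 (the interferon gamma receptor gene IFNGR2) with a median of −0.42, and 8 were below 0. IRF1 was at −1.12 ± 0.176, STAT2 at −1.02 ± 0.212 and IRF9 at −0.50 ± 0.208. None of the 10 was called by edgeR, beside 0% of all genes called lower, whereas 5 were lower at an unadjusted p below 0.05 (4.69% of all genes) and 4 were called lower by DESeq2 (1.58%). All but IFNLR1 were kept by a comparison that subtracts control wells, so these counts are not independent of that selection. Among genes whose products bind or modify IFITM3, the ubiquitin ligase gene NEDD4 and the kinase gene FYN had an identifier out of 8. NEDD4 rose by 2.47 ± 0.247 in high and 1.83 ± 0.252 in low responders, and FYN rose by 0.94 ± 0.168 in high responders and was at 0.52 ± 0.162 in low responders. The call of FYN was lost without the pairing of wells (0.98) and with an effect allowed to shift by library code (0.60).

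The summed level of the 4 macrophage markers also differed between the phenotypes, in the opposite direction and by less. In control wells at 3 h it was 3150 to 3200 CPM in high and 1850 to 2830 CPM in low responders, and at 18 h 2540 to 3160 and 1840 to 2520 CPM. In exposed wells it was 2760 to 3170 and 1960 to 3020 CPM at 3 h, and 2560 to 3030 and 2010 to 2550 CPM at 18 h. CD68 was its most abundant gene and none of the 4 was at 0 in any library. The part of these differences in the levels of the 3 genes was not tested.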

How the data were processed

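Paired reads of 24 stranded mRNA libraries were trimmed with Trimmomatic, checked with FastQC 0.11.5, mapped with STAR to UMD 3.1 and quantified with RSEM by the authors. The deposited tables hold expected counts and posterior mean counts per gene, TPM, and a score column with the posterior standard deviation of each count, and other deposited columns hold gene and effective length. Expected counts (6297190 to 20936554 per library) were rounded. CPM were scaled with TMM over 24 libraries, and log2 CPM used a prior count of 0.5. In R 4.3.3, edgeR 4.0.16 quasi-likelihood fits, tested on simulated data, had a term for each cow and an E. coli effect for each phenotype (12 libraries of a time point), or compared phenotypes within 6 control or exposed wells. A list gene was called at a Benjamini-Hochberg adjusted p below 0.05 and a fold change above 1.5. DESeq2 1.42.0 was an alternative.

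Wells were paired by library code: deviations from group means correlated at 0.296 to 0.701 in the 12 pairs and at −0.532 to −0.0135 otherwise. Deviations from a mean of 3 libraries sum to 0, which by itself pushes the latter below 0 when the former lie above it. The genes and lists were chosen with earlier results of these data known. Named besides the 3 genes were the 5 genes most correlated with each, IFIT1, ISG15, ISG20, RSAD2, IRF1, IRF9, STAT2 and CD14, and the 3 largest called rises and falls of a list, while IFI35, PARP9, IFNGR2, NEDD4, FYN and the marker genes other than CD14 were named after their values were seen. TAX1BP1 and NANS were named as the other genes with neighbouring identifiers that had a symbol. Symbols came from the identifier and name columns of the study's supplementary tables, used here in shortened form. The 6 cows are separate animals, with 1 well per condition.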

Additional observations from a re-analysis of the deposited data

Results flagged for a closer look

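IFITM3 at 18 h was singled out because its E. coli effect lay above 0 in all 3 high responder cows (log2 changes of 0.03, 0.12 and 0.68) and below 0 in all 3 low responder cows (−0.45, −0.06 and −0.94) by CPM, with a difference of 0.76, high minus low, whereas by TPM high responder codes 91 and 93 were also below 0 (−0.332 and −0.246). The arrangement by CPM was seen in 81 of 11736 genes tested (0.69%). The difference was not tested, because the gene was chosen with these counts in view, and in 3 of the 6 cows the change was 0.12 or less on the log2 scale.

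IFIT1 at 18 h had the same arrangement, as in 0.69% of the genes tested, with log2 changes of 0.832, 2.84 and 0.621 in high and −0.0874, −0.04 and −0.128 in low responders and a difference of 1.45. It was not tested either, because its identifier was available through values of this same comparison.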

How the results depend on the processing

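Of 336 values of the 3 genes under other normalizations, filters, tools and designs, 331 moved by less than the SD between replicates, as did 176 of 180 with 1 cow left out. On the deposited TPM scale (chosen after the data were seen), the E. coli effect in low responders at 3 h was −0.078 for IFITM3 and −0.22 for IFITM2, and that of IFITM2 in high responders at 18 h was −0.86, which follows from the shift of the median gene. With the 3 genes summed, the latter was −0.083, and the difference between phenotypes in wells exposed for 3 h was −2.43 in place of −2.11 for ENSBTAG00000019018. The E. coli effects of ENSBTAG00000019018 in low responders at 3 h and in high responders at 18 h and of IFITM3 in high responders at 18 h lay near 0 and changed sign under some alternatives.

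With 1 cow left out, the difference between phenotypes in control wells at 18 h ranged from −3.61 to −2.24 for IFITM3, from −3.82 to −3.12 for IFITM2 and from −3.50 to −2.17 for ENSBTAG00000019018, and in exposed wells at 18 h from −3.33 to −2.32 for IFITM2. Without the replicate block that pairs the wells of a cow, the E. coli effect in high responders at 3 h was 0.82 for IFITM3, 0.90 for IFITM2 and 0.85 for ENSBTAG00000019018. A further fit let the effect shift by 1 common amount for codes 93 and 94 of both phenotypes, although only a high responder cow carries code 94 at 3 h. In it the effect in high responders outside those codes was 0.64, 0.71 and 0.27. Code 92 is the only such cow at 3 h, but these values also draw on the low responder cows. The changes of code 92 itself were 0.40, 0.68 and 0.32. The interferon-stimulated genes called higher in low responders at 3 h numbered 2 without the block and 11 to 20 with 1 cow left out. Without the block, calls were lost for SAMHD1 (−0.78), STAT2 (0.83) and FYN (0.98) in high and for IFIT1 (2.21), ISG20 (1.58), RSAD2 (2.41) and SAMHD1 (−0.77) in low responders, with fold changes close to those with it. In the fit with the common shift by code, calls were lost for SAMHD1 (−0.72) and FYN (0.60) in high and for SAMHD1 (−0.75) in low responders. There STAT2 was called in low responders (0.70). Of 418 alternative values of named list genes, 396 kept their direction and their side of the threshold. Depth limits the 3 genes little, as the lowest expected count was 80.9. Protein and promoter comparisons and their motif search were not run, as no sequence was used here.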
